A study of Mus musculus with 11 samples.

Results

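Toll-like receptors (TLRs) reach their sites of signalling only after folding in the endoplasmic reticulum (ER), and 10 genes of this route were examined in tumor cDC1s: 6 receptors (*Tlr2*, *Tlr3*, *Tlr4*, *Tlr7*, *Tlr9* and *Tlr11*), the trafficking chaperone *Unc93b1*, the canopy chaperones *Cnpy3* and *Cnpy4*, and the adaptor *Myd88*. They were chosen by name, with earlier results of these data known, out of 24421 genes in the count table. All 10 were in the table, and 9 passed the filter on low values (above 1 CPM, the count scaled to library size, in at least 4 pools) that left 10951 genes for testing. *Tlr7* did not pass.

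cDC1s are conventional type 1 dendritic cells, which take up dead cells and cross-present their antigens to CD8+ T cells. They were sorted from B16-F10 melanomas, a transplantable mouse melanoma line, grown for 10 to 15 days in C57BL/6 mice aged 6 to 14 weeks, with cells of 2 to 4 mice in each pool. The 11 pools fell into 3 genotypes, all carrying the floxed *Xbp1* allele. The 4 control pools had no Cre. Control replicates 1 to 3 were XBP1 fl/fl, and replicate 4 was XBP1 fl/fl IRE1 fl/fl. The 4 XBP1ΔDC pools had exon 2 of *Xbp1* floxed and *Itgax*-Cre, which is driven by the CD11c promoter and so acts in CD11c-expressing cells at large, not in cDC1s alone. The 3 XBP1ΔDCIRE1truncDC pools also lost exons 20 and 21 of *Ern1*, which leaves a truncated IRE1 without its RNase domain. The labels do not say how mice were shared out among pools beyond this. The pool is the unit of every test. The edgeR p-values set a difference against the spread between pools, estimated over all 3 groups and shared in part across genes. The comparisons ask which genes of the TLR route follow the loss of XBP1, and which do so when the IRE1 RNase is lost as well.

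XBP1 is a transcription factor made after IRE1, an ER stress sensor, splices the *Xbp1* mRNA, and it drives many genes for ER folding. The same RNase can also cut other mRNAs, a process called RIDD. TLRs that read nucleic acids (TLR3, TLR7, TLR9) and TLR11 need UNC93B1 to leave the ER for endosomes. TLR2 and TLR4 are cell surface receptors for bacterial lipoproteins and lipopolysaccharide. CNPY3 (also known as PRAT4A) works beside the chaperone gp96, encoded by *Hsp90b1*, in the folding of TLRs other than TLR3, and CNPY4 (PRAT4B) is its paralog. MYD88 carries the signal of all TLRs named here except TLR3, which signals through TRIF. Mouse cDC1s are known for TLR3 and TLR11 and for little TLR7.

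Totals were 21089065 to 26843486 counts per pool. The 7 cDC1 markers summed to 10647 to 11871 CPM in control pools, 8880 to 10147 CPM in XBP1ΔDC pools and 9790 to 10700.4 CPM in XBP1ΔDCIRE1truncDC pools, and *Xcr1* lay between 751 and 989 CPM in every pool. Of these markers *Naaa*, a lysosomal amidase, was called lower in XBP1ΔDC (log2 fold change -0.51, adjusted p = 0.000495) and in XBP1ΔDCIRE1truncDC (-0.33, adjusted p = 0.0396). It was a large part of the sums, at means of 4141, 2905 and 3298 CPM in control, XBP1ΔDC and XBP1ΔDCIRE1truncDC. The other cDC1 markers were not called, with log2 fold changes of -0.13 to 0.02 in XBP1ΔDC and -0.11 to 0.08 in XBP1ΔDCIRE1truncDC. The cDC2 markers summed to 27.7 to 73.7 CPM over the 11 pools, macrophage and monocyte markers to 27.6 to 44.7, 33.1 to 102 and 31.3 to 84.6 CPM in control, XBP1ΔDC and XBP1ΔDCIRE1truncDC pools, and melanoma markers to 8.22 to 58.5, 10.7 to 63.1 and 6.17 to 8.13 CPM. Neutrophil, B cell and T and NK cell markers summed to at most 1.87, 2.76 and 5.79 CPM in any pool. The targeted gene *Xbp1* was at 244 to 271 CPM in control pools, 130.1 to 165 CPM in XBP1ΔDC pools and 179 to 236 CPM in XBP1ΔDCIRE1truncDC pools. Its log2 fold change against control was -0.74 (adjusted p = 0.00167) in XBP1ΔDC and -0.28 (adjusted p = 0.324) in XBP1ΔDCIRE1truncDC. *Ern1* was at 9.82 to 19.0 CPM in control, 9.74 to 15.6 CPM in XBP1ΔDC and 17.0 to 26.0 CPM in XBP1ΔDCIRE1truncDC pools. Reads summed over a gene do not show whether exon 2 of *Xbp1* or 2 exons of *Ern1* were lost. The study states that XBP1ΔDC cells still make *Xbp1* mRNA but cannot make the protein of its spliced form. These levels therefore do not measure how complete the deletion was. In bulk pools, fewer cells of a type and less RNA per cell cannot be told apart.

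The promoter of *Cnpy3* is shown because it is the only one of the 10 genes whose level was called different, with that of its paralog *Cnpy4*, which was not, for comparison. Each runs from 250 bases before to 50 after the gene's start (RefSeq, GRCm38.p6). The *Cnpy3* promoter lies at chr17:46752165-46752464 on the minus strand and that of *Cnpy4* at chr5:138187285-138187584 on the plus strand. Capitals mark matches, on either strand, to the motif letters CCACG or ACGT.
Cnpy3: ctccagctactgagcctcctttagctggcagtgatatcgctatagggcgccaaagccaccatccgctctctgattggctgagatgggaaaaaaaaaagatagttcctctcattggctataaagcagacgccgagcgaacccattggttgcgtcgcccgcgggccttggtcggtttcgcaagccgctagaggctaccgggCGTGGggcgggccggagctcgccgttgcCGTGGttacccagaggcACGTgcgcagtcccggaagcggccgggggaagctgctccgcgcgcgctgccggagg
Cnpy4: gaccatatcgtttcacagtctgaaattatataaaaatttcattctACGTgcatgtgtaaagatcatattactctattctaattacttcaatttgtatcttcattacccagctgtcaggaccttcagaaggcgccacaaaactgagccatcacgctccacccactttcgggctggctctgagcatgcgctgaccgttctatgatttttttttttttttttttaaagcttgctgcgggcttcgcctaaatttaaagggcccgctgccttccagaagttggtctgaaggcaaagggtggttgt
Both motifs are cores of longer elements that XBP1 is known to bind. The ER stress response element (ERSE), searched as CCAAT followed after 9 bases of any kind by CCACG, contains the first, and the core of the unfolded protein response element (UPRE), searched as TGACGTGG, contains the second and, on its other strand, the first. The *Cnpy3* promoter held CCACG at positions -51 and -23 and ACGT at -6, counted from the gene's start, and the *Cnpy4* promoter held ACGT at -205. Neither held the ERSE or the UPRE core. Of 32851 promoters of this length, 32.8% held CCACG, 30.9% ACGT, 0.676% the UPRE core and 0.119% the ERSE, so the short matches are common. RefSeq promoters were at hand for 7 of the 10 genes. *Tlr11* (at -155) and *Myd88* (at -125) held a single ACGT each, and *Tlr2*, *Tlr3* and *Tlr9* held none of the 4 motifs. These matches are letters in a window, not binding sites.

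The IRE1 RNase is known to cut mRNA at the hexamer CTGCAG where it stands in the loop of a short hairpin. The longest coding transcript of *Cnpy3* held 3 matches, and those of *Tlr7* and *Tlr9* held 4 each. *Tlr4* and *Tlr11* held 2 each, and *Tlr2*, *Tlr3*, *Unc93b1* and *Myd88* 1 each. The *Cnpy3* matches are shown with 10 bases on each side, the hexamer in capitals, named by gene and position in the transcript (GENCODE vM21), beside the only match among the 10 genes that stood in a hairpin.
Cnpy3 at 1435: acgccagagaCTGCAGagagggcacc
Cnpy3 at 1477: gaaagccaatCTGCAGttcccgtgtc
Cnpy3 at 1765: ccttctaacaCTGCAGccccttaata
Tlr4 at 2010: tcagaaattcCTGCAGtgggtcaagg
A hairpin was counted where 4 base pairs, with G-T pairs allowed, closed a loop of 7 bases starting at the hexamer. That held for 0 of the 3 *Cnpy3* matches, 1 of 2 in *Tlr4* and the single match of *Xbp1*. *Cnpy4* held no CTGCAG. Of 21901 genes, 79.8% held the hexamer and 5.25% held it in such a hairpin.

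Compared per exon length, the 10 genes spanned a wide range in control pools. The CPM per kilobase of exon (RPKM) averaged 359 ± 17.7 (SD, n = 4) for *Unc93b1*, 125 ± 12.6 for *Myd88*, 82.7 ± 9.95 for *Tlr3*, 81.5 ± 5.56 for *Tlr11* and 55.5 ± 1.94 for *Cnpy3*. The lower group was *Tlr2* at 10.97 ± 1.01 RPKM, *Cnpy4* at 4.08 ± 0.738, *Tlr4* at 2.68 ± 0.412, *Tlr9* at 0.707 ± 0.252 and *Tlr7* at 0.0831 ± 0.115. Among neighbours in this order, the control pools overlapped only for *Tlr3* and *Tlr11*. *Unc93b1* was first, *Myd88* second and *Tlr7* last in 11 of 11 pools, while *Tlr11* was above *Tlr3* in 7 pools and below it in 4. With the length of the longest transcript in place of the exon union, the order stayed the same, but *Tlr11* and *Cnpy3*, and *Cnpy4* and *Tlr4*, overlapped as well.

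**Figure D1:**
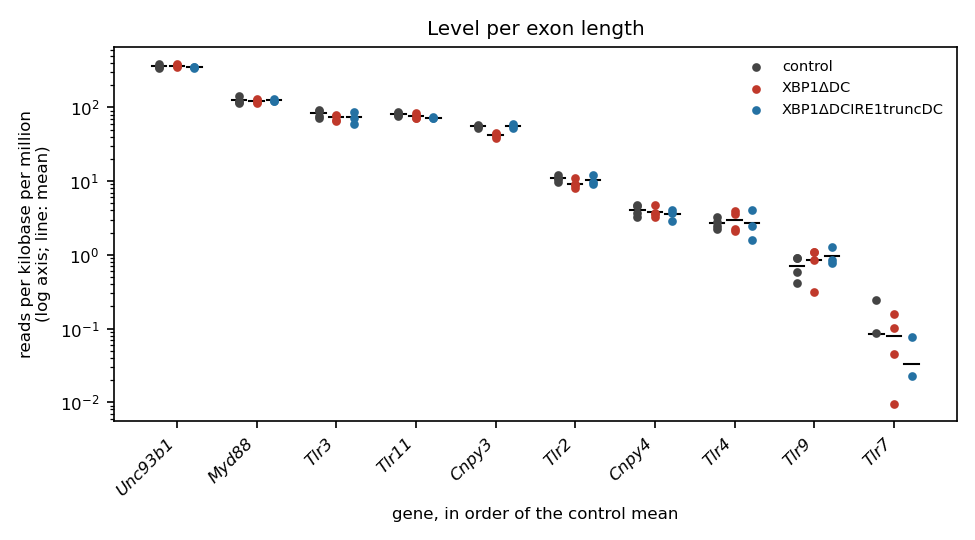
Level per exon length of the 10 genes (RPKM, log axis) in order of the control mean, with a point for each pool, a line at each group's mean and the 3 genotypes side by side. *Unc93b1* lies at about 359 RPKM and *Tlr7* at 0.0831 RPKM in control, and pools with no *Tlr7* read (2 control, 1 XBP1ΔDCIRE1truncDC) have no point.

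*Cnpy3* was lower in XBP1ΔDC cDC1s and overlapped control in XBP1ΔDCIRE1truncDC cDC1s. The control pools (replicates 1 to 4) gave 149.7, 152, 140.2 and 149 CPM. XBP1ΔDC pools 1 to 4 gave 107, 120.3, 103 and 114 CPM, and XBP1ΔDCIRE1truncDC pools 1 to 3 gave 158, 139 and 147 CPM. All 4 XBP1ΔDC pools were below all other pools, and the control and XBP1ΔDCIRE1truncDC pools overlapped. The fall in XBP1ΔDC was to 0.753 of the control level (log2 fold change -0.41, standard error 0.0722, 95% interval -0.56 to -0.25, adjusted p = 0.0156 from edgeR). That is short of the study's fold limit of 1.5 for a DEG. In this comparison 0.493% of genes tested were DEGs, which had to be called and also pass that limit. *Cnpy3* was 1 of 9 genes of the route called, where 0.895% of all genes tested were called and 0.858% were called lower. Pools of the 2 groups did not overlap for 5.31% of genes tested. The log2 fold change lay between -0.45 and -0.37 in 21 of 21 alternative settings, and the call was kept in 15. It was lost without control replicate 1 (adjusted p = 0.0602), 2 (0.0625) or 4 (0.0532), and without XBP1ΔDC replicate 1 (0.0618) or 3 (0.0664), and in the fit with a replicate block (0.0681).

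Between XBP1ΔDCIRE1truncDC and control the log2 fold change of *Cnpy3* was 0.01 (95% interval -0.16 to 0.17, adjusted p = 0.992). The direct comparison of the lines gave a level 1.33 times higher in XBP1ΔDCIRE1truncDC than in XBP1ΔDC (log2 fold change 0.41, standard error 0.0775, 95% interval 0.25 to 0.58). Its unadjusted p of 0.000145 became 0.108 over all genes tested by edgeR, so the difference between the lines did not pass the threshold. DESeq2 gave 0.000459 and limma voom 0.093 for the same adjusted p. The pools of these lines did not overlap, which held for 6.07% of genes tested. The XBP1ΔDC pools enter both this comparison and the one with control.

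*Cnpy3* is the only one of the 10 genes in the study's literature list of XBP1 targets, of which 60 were tested, and none is in its list of RIDD targets. Within the XBP1 targets, *Cnpy3* was 26th from the lowest log2 fold change in XBP1ΔDC against control, where the list had a median of -0.36. In XBP1ΔDCIRE1truncDC against control it was 11th from the highest, at 0.01 where the list had a median of -0.31. Between the lines it was 3rd from the highest, at 0.41 where the list had a median of 0.06. The genes whose log2 CPM followed *Cnpy3* most closely over the 11 pools were *Itgb2* (Pearson r = 0.966), *Slc1a5* (0.964) and *Rnf130* (0.955), a description over pools that share the difference between genotypes. The study counts *Itgb2* and *Rnf130* among RIDD targets that were lower in XBP1-deficient but not in double-deficient cDC1s. Whether IRE1 cuts *Cnpy3* mRNA was not tested.

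**Figure D2:**
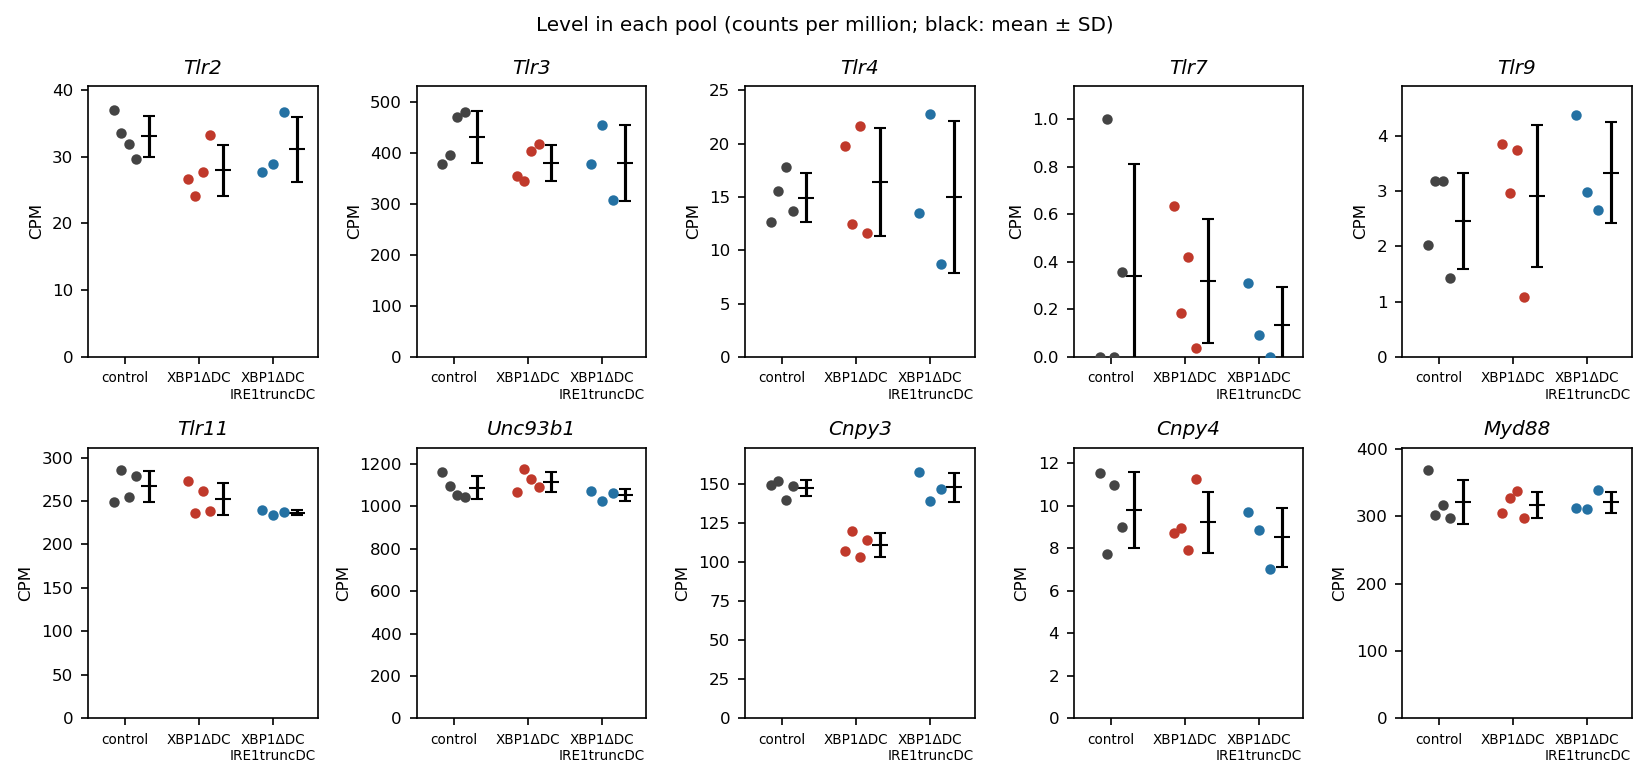
Level of each gene in each pool (CPM, linear axis from 0), with points for pools in order of replicate number and the mean ± SD in black for 4 control, 4 XBP1ΔDC and 3 XBP1ΔDCIRE1truncDC pools. Only *Cnpy3* has a group, XBP1ΔDC at 103 to 120.3 CPM, that lies apart from both others.

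*Cnpy4* was low in all groups. Control pools 1 to 4 gave 11.5, 7.70, 10.9 and 8.97 CPM, XBP1ΔDC pools 1 to 4 gave 8.70, 8.96, 7.92 and 11.3 CPM, and XBP1ΔDCIRE1truncDC pools 1 to 3 gave 9.70, 8.85 and 6.997 CPM. The groups overlapped, and the log2 fold change in XBP1ΔDC was -0.09 with a 95% interval of -0.49 to 0.32. That interval includes the fall seen for *Cnpy3*, so a change of that size in *Cnpy4* is not excluded.

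The levels of *Unc93b1*, the most abundant of the 10 genes, were narrow. The control pools (replicates 1 to 4) gave 1161, 1093, 1054 and 1042 CPM, XBP1ΔDC pools 1 to 4 gave 1068, 1175, 1129 and 1092 CPM, and XBP1ΔDCIRE1truncDC pools 1 to 3 gave 1073, 1023 and 1064 CPM. The groups overlapped. Its log2 fold change was 0.04 in XBP1ΔDC (95% interval -0.09 to 0.16, adjusted p = 0.964) and -0.05 in XBP1ΔDCIRE1truncDC (-0.18 to 0.09, adjusted p = 0.864), and -0.08 between the lines (-0.22 to 0.05, adjusted p = 0.967). The genes nearest to it in pattern were *Ifi203* (r = 0.93), *Dvl3* (0.887) and *G6pdx* (0.869).

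*Tlr3*, the receptor for double-stranded RNA, was the receptor with the most reads. Control pools 1 to 4 gave 378, 395, 470.1 and 479.9 CPM, XBP1ΔDC pools 1 to 4 gave 355, 344, 404 and 417 CPM, and XBP1ΔDCIRE1truncDC pools 1 to 3 gave 378, 454 and 307 CPM. Control replicates 3 and 4 were the highest pools, and XBP1ΔDCIRE1truncDC replicates held both the third highest and the lowest. The log2 fold change was -0.18 against control in XBP1ΔDC (95% interval -0.44 to 0.08, adjusted p = 0.838) and also -0.18 in XBP1ΔDCIRE1truncDC (-0.47 to 0.10, adjusted p = 0.688), and it was 0.00 between the lines (-0.28 to 0.28). Nearest in pattern were *Gna15* (r = 0.932), *Yaf2* (0.924) and *Gpi1* (0.923). An antisense gene, *Gm45542*, overlaps 381 exon bases of *Tlr3* (7.32%), and without strand the reads of the pair cannot be told apart.

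*Tlr11* encodes a receptor that recognizes profilin of protozoa. The control pools (replicates 1 to 4) gave 248, 286, 254 and 278 CPM, XBP1ΔDC pools 1 to 4 gave 273, 237, 261 and 238 CPM, and XBP1ΔDCIRE1truncDC pools 1 to 3 gave 239, 234 and 237 CPM. The last 3 pools were all below the control pools, and in that comparison pools did not overlap, in either direction, for 10.1% of genes tested. The log2 fold change there was -0.17 (standard error 0.0785, unadjusted p = 0.0477, adjusted p = 0.439 from edgeR), which did not pass the threshold. The spread of those 3 pools (coefficient of variation 1.19%) was no larger than counting error (1.34%). In XBP1ΔDC the log2 fold change was -0.08 (adjusted p = 0.925), with overlapping pools.

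The surface receptors had fewer reads and wider intervals. For *Tlr2*, control pools 1 to 4 gave 36.96, 33.5, 31.97 and 29.7 CPM, XBP1ΔDC pools 1 to 4 gave 26.6, 24.1, 27.8 and 33.3 CPM, and XBP1ΔDCIRE1truncDC pools 1 to 3 gave 27.7, 28.98 and 36.7 CPM. Of the XBP1ΔDC pools, replicates 1 to 3 were below every control pool and replicate 4 was not, and the log2 fold change was -0.24 (95% interval -0.52 to 0.04, adjusted p = 0.753). *Tlr4* ranged from 12.6 to 17.8 CPM in control, 11.6 to 21.7 CPM in XBP1ΔDC and 8.69 to 22.8 CPM in XBP1ΔDCIRE1truncDC pools, so the spread within the last group was larger than any difference between group means. Its log2 fold changes were 0.14 in XBP1ΔDC, 0.01 in XBP1ΔDCIRE1truncDC and -0.13 between the lines, and the adjusted p was at least 0.97.

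The receptors for single-stranded RNA (*Tlr7*) and for CpG DNA (*Tlr9*) had the lowest levels of the 10 genes. *Tlr9* had 32 to 86 counts in control, 28 to 98 in XBP1ΔDC and 61 to 112 in XBP1ΔDCIRE1truncDC pools, with means of 2.46, 2.92 and 3.34 CPM. The intervals of its log2 fold changes were wide, from -0.67 to 1.15 in XBP1ΔDC and from -0.53 to 1.41 in XBP1ΔDCIRE1truncDC. *Tlr7* had 0, 27, 0 and 8 counts in control replicates 1 to 4, 14, 4, 11 and 1 counts in XBP1ΔDC replicates 1 to 4, and 8, 2 and 0 counts in XBP1ΔDCIRE1truncDC replicates 1 to 3. A count of 0 allows up to 3 counts, or 0.127, 0.124 and 0.130 CPM in those pools, for counting error only. By exact two-sided permutation over pools the *Tlr7* comparisons gave p = 1 for XBP1ΔDC, 0.629 for XBP1ΔDCIRE1truncDC and 0.371 between the lines, where the smallest p possible was 0.0286, and adjusted over the 3 they were 1, 0.943 and 0.943. The pDC markers, which come with *Tlr7* and *Tlr9* in plasmacytoid dendritic cells, summed to 120.3 to 149.9 CPM in control, 103 to 137 in XBP1ΔDC and 106 to 137 in XBP1ΔDCIRE1truncDC pools. Of the 6 markers, *Bst2* made up the most, at means of 71.4, 68.9 and 68.2 CPM, *Tcf4* averaged 23.9, 20.8 and 22.7 CPM, *Spib* averaged 13.1, 16.9 and 17.6 CPM, and *Ly6d* had at most 2 counts in any pool. *Siglech* averaged 4.57, 2.10 and 1.26 CPM (0 counts in 1 XBP1ΔDCIRE1truncDC pool) and *Ccr9* 15.8, 10.5 and 6.98 CPM, with all XBP1ΔDCIRE1truncDC pools below control for both. Neither was called there by edgeR (log2 fold changes -1.85 and -1.17, unadjusted p = 0.0364 and 0.00705, adjusted p = 0.397 and 0.245). Pools of that comparison did not overlap for 10.1% of genes tested. The part of these markers in the levels of *Tlr7* and *Tlr9* was not tested.

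For *Myd88*, control pools 1 to 4 gave 368, 301, 316 and 298 CPM, XBP1ΔDC pools 1 to 4 gave 305, 326, 338 and 297 CPM, and XBP1ΔDCIRE1truncDC pools 1 to 3 gave 312, 311 and 339 CPM. Control replicate 1 was the highest pool and the groups overlapped. The 95% interval of its log2 fold change was -0.19 to 0.15 in XBP1ΔDC and -0.19 to 0.19 in XBP1ΔDCIRE1truncDC. *Acaa1a*, on the other strand, shares 290 exon bases with it (11.3%).

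**Figure D3:**
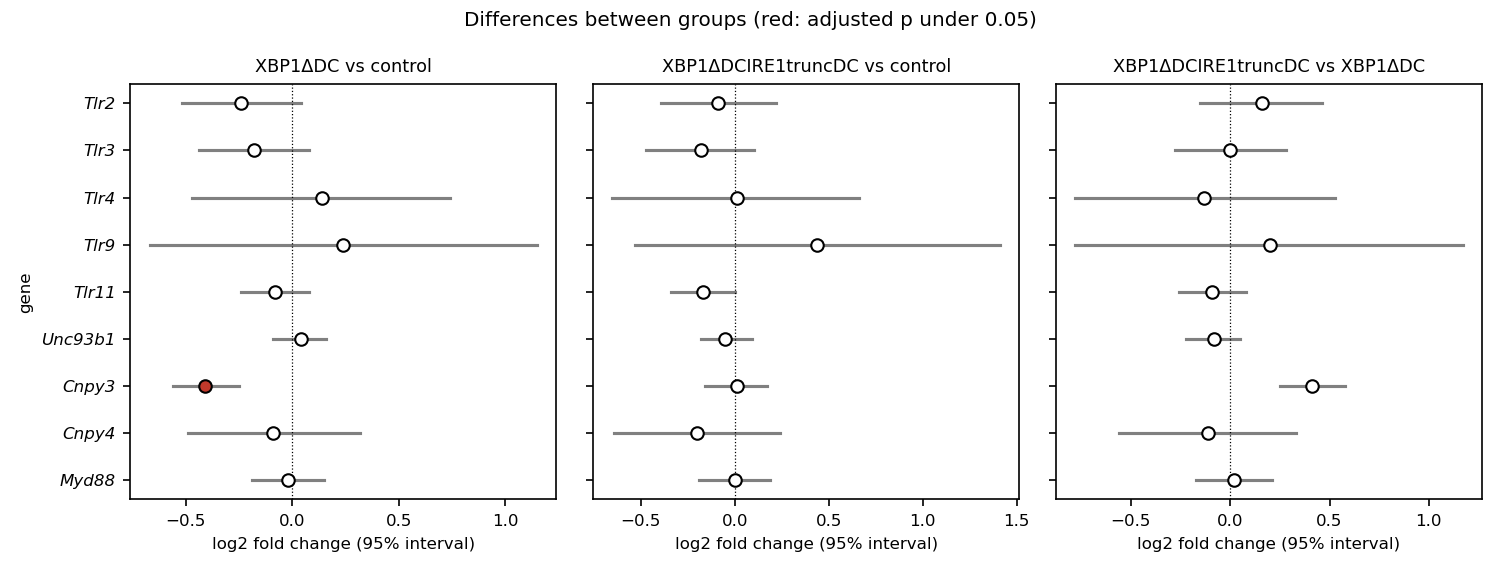
Log2 fold change of the 9 tested genes in the 3 comparisons, with 95% intervals as bars and a red point where the adjusted p was under 0.05. The only red point is *Cnpy3* at -0.41 in XBP1ΔDC against control, and its point between the lines, at 0.41, has an interval above 0 but an adjusted p of 0.108.

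Over the 9 tested genes, the median log2 fold change was -0.08 in XBP1ΔDC, -0.05 in XBP1ΔDCIRE1truncDC and 0.00 between the lines, against 0.00 over all genes tested in each comparison. Of the 9, 1 was called in XBP1ΔDC by edgeR, limma voom and DESeq2 alike, and it was also the only one under an unadjusted p of 0.05, as 7.62% of all genes tested were. None was called in XBP1ΔDCIRE1truncDC by any of these tools, where edgeR called 0.356% of all genes, and 1 of the 9 (*Tlr11*) had an unadjusted p under 0.05 by edgeR, as did 11.2% of all genes tested. Between the lines edgeR called 0 of the 9 and 0.0731% of all genes, with 1 (*Cnpy3*) under 0.05 unadjusted, as were 5.29% of all genes. limma voom also called 0 there, and DESeq2 called 1 (*Cnpy3*), where it called 59 genes in all (0.539%) against 8 by edgeR.

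The companion genes of the route, 74 in 8 lists, gave 66 that were tested, and edgeR called 1 of them in XBP1ΔDC and 0 in the other comparisons, with 7, 11 and 4 under an unadjusted p of 0.05, where 7.62%, 11.2% and 5.29% of all genes tested were under it and 0.895%, 0.356% and 0.0731% were called. limma voom called the same numbers of companion genes and 0.941%, 0.347% and 0.0731% of all genes. DESeq2 called 2, 1 and 0 companion genes and 1.91%, 1.89% and 0.539% of the genes to which it gave an adjusted p. The gene called by edgeR was *Lman1*, the cargo receptor ERGIC-53 that carries glycoproteins from the ER to the Golgi. Control pools 1 to 4 gave 60.5, 61.5, 63.4 and 80.6 CPM, XBP1ΔDC pools 1 to 4 gave 41.0, 52.2, 45.6 and 45.5 CPM, and XBP1ΔDCIRE1truncDC pools 1 to 3 gave 51.3, 53.9 and 48.5 CPM. Both lines lay below every control pool. Pools did not overlap with control for 5.31% of genes tested in XBP1ΔDC and 10.1% in XBP1ΔDCIRE1truncDC. The log2 fold change was -0.53 in XBP1ΔDC (95% interval -0.77 to -0.29, adjusted p = 0.0427 from edgeR) and -0.38 in XBP1ΔDCIRE1truncDC (adjusted p = 0.255), and 0.15 between the lines (95% interval -0.10 to 0.41). Its call was lost in 9 of 11 fits that left out a pool.

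*Hsp90b1*, the gp96 partner of CNPY3, had the opposite sign. The control pools (replicates 1 to 4) gave 899, 1036, 1007 and 1109 CPM, XBP1ΔDC pools 1 to 4 gave 1102, 1313, 1366 and 1342 CPM, and XBP1ΔDCIRE1truncDC pools 1 to 3 gave 1414, 1796 and 1179 CPM. All XBP1ΔDCIRE1truncDC pools were above the control pools, and pools of these groups did not overlap for 10.1% of genes tested. The log2 fold change against control was 0.34 in XBP1ΔDC (adjusted p = 0.416) and 0.53 in XBP1ΔDCIRE1truncDC (95% interval 0.26 to 0.80, adjusted p = 0.111), so neither passed by edgeR, while DESeq2 called the second. Among the 6 tested folding partners, which include the ribosome-binding ER protein *Lrrc59*, the median log2 fold change was -0.19 in XBP1ΔDC and -0.17 in XBP1ΔDCIRE1truncDC, and 3 of 6 had an unadjusted p under 0.05 in each (2 lower and 1 higher), where 7.62% and 11.2% of all genes tested did.

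**Figure D4:**
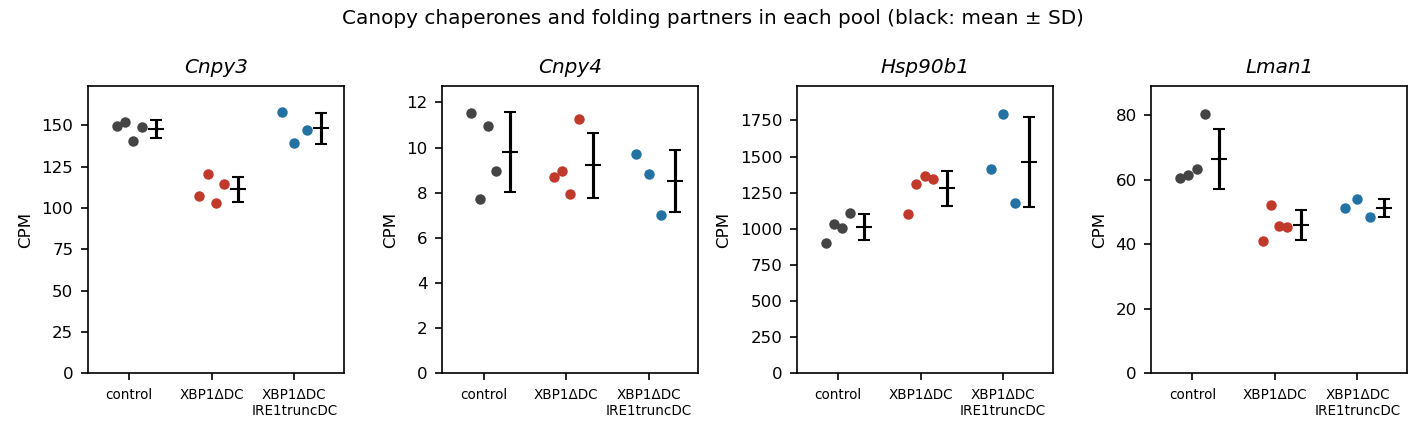
Level in each pool (CPM, linear axis from 0) of *Cnpy3*, *Cnpy4*, *Hsp90b1* and *Lman1*, with points for pools and the mean ± SD in black (n = 4, 4 and 3). *Cnpy3* lies lower in XBP1ΔDC pools than in all others, *Lman1* lies below all control pools in both lines, and *Hsp90b1* reaches 1796 CPM in an XBP1ΔDCIRE1truncDC pool.

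Of the other TLRs, 4 of 6 were tested and none was called by edgeR, limma voom or DESeq2, with *Tlr13* the only one under an unadjusted p of 0.05 (0.0125, between the lines). *Tlr13*, a receptor for bacterial ribosomal RNA, averaged 92.6 ± 9.05 CPM (SD, n = 4) in control, 101 ± 16.2 in XBP1ΔDC (n = 4) and 78.5 ± 1.85 in XBP1ΔDCIRE1truncDC (n = 3). *Tlr12*, the partner of TLR11 in sensing profilin, ranged from 17.6 to 29.8 CPM in control, 15.4 to 31.97 in XBP1ΔDC and 19.3 to 32.7 in XBP1ΔDCIRE1truncDC pools. The co-receptor *Cd180*, named after its values were seen, fell short of the threshold in XBP1ΔDC (log2 fold change -0.56, adjusted p = 0.0601 from edgeR) with all 4 pools below control, and DESeq2 called it. Pools of that comparison did not overlap for 5.31% of genes tested. Endosomal trafficking genes (9 tested), endosomal proteases (4), co-receptors (6), adaptors (5), and kinases and factors of signalling (20) gave no call by edgeR in any comparison, with medians from -0.12 to 0.11 and at most 2 genes of a list under an unadjusted p of 0.05. The most abundant by CPM were *Rab7* and *Ap3b1*, *Ctss* and *Ctsb*, *Cd36* and *Ly86*, *Pik3ap1* and *Ticam1*, and *Irf5* and *Irf7*, in the order of the lists.

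Genes induced by TLR signalling were 12 tested, none called by edgeR, with 6 under an unadjusted p of 0.05 in XBP1ΔDCIRE1truncDC against control, all higher, where 11.2% of all genes tested were under it and 5.73% were under it and higher. Their median log2 fold change was 0.46 there and 0.37 in XBP1ΔDC. *Il1b*, the most abundant of them, averaged 1616 ± 286 CPM in control, 1341 ± 489 in XBP1ΔDC and 1659 ± 690.1 in XBP1ΔDCIRE1truncDC (SD, n = 4, 4 and 3). *Il12b*, which encodes the p40 subunit of IL-12, averaged 416 ± 118 CPM in control, 559 ± 147 in XBP1ΔDC and 820 ± 377 in XBP1ΔDCIRE1truncDC (log2 fold change of the last against control 0.98, adjusted p = 0.197). The mature DC markers went the same way. They summed to 1759 to 3639 CPM in control, 2256 to 4869 CPM in XBP1ΔDC and 3261 to 6519 CPM in XBP1ΔDCIRE1truncDC pools, all 3 tested (*Ccr7*, *Fscn1* and *Ccl22*) had an unadjusted p under 0.05 in the last group, none was called, and *Lamp3* was at 0. Their part in the induced genes was not tested.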

How the data were processed

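RNA-seq covered 11 pools of tumor cDC1s. Per the labels and the study's methods, the authors trimmed single-end SMART-seq reads (Trimmomatic 0.39), aligned them to mm10 with STAR 2.7.3a and deposited whole-number counts per gene (HTSeqCount). The annotation and strand setting are not given in the sources used here. The authors also deposited log2 values, which equal the log2 CPM of limma voom after TMM scaling.

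The counts were tested with edgeR 4.0.16 under R 4.3.3 (TMM, more than 1 CPM in at least 4 pools, quasi-likelihood test, all 3 groups in a single fit, Benjamini-Hochberg over 10951 genes). Called means adjusted p under 0.05. A DEG also had a fold change above 1.5. Standard errors are the log2 fold change over the square root of F. The script was tested on simulated data. *Tlr7* was tested by exact permutation of CPM. RPKM used exon lengths of GENCODE vM21 (GRCm38). Alternatives used limma 3.58.1 and DESeq2 1.42.0, other scalings, filters and pools, and a replicate block. Totals were at least 21089065 counts per pool. For the 10 genes, counting error (coefficient of variation) was below the spread between pools in every group except *Tlr11* in XBP1ΔDCIRE1truncDC (1.34% against 1.19%).

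Pools were grouped by the labelled genotype. The genes and companion lists were chosen with earlier results of these data known. Named genes are the 10 genes of the route, *Xbp1* and *Ern1*, companion genes that were called or among the 2 most abundant of a list, marker genes, and the 3 genes nearest in pattern to *Cnpy3*, *Tlr3* and *Unc93b1*. *Cd180* was named after their values were seen. No pool was left out.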

Additional observations from a re-analysis of the deposited data

How the results depend on the processing

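In XBP1ΔDC against control, the fit with a replicate block called 0 of the 9 genes (*Cnpy3* -0.41, adjusted p = 0.0681) and 0 companion genes. With group means removed, same-numbered pools correlated at 0.0418 to 0.133 there, -0.0204 to 0.027 for XBP1ΔDCIRE1truncDC with control and -0.26 to -0.142 between the lines. Their means were 0.0979, 0.00353 and -0.221. Pools with unlike numbers averaged -0.0326, -0.00123 and 0.0738, but removing group means nearly fixes these values and their opposite sign in advance. They are therefore no separate baseline. The sign differs between comparisons and the labels name no shared source, so these values cannot decide whether the numbers pair the pools. Some genes did run alike by number in control and XBP1ΔDC. *Tlr3* and the melanoma markers *Pmel*, *Dct* and *Tyrp1* were higher in replicates 3 and 4 than in 1 and 2 of both groups. *Cnpy3* and *Tlr2* were not. Whether the groups share a batch was not tested, and the main fit has no term for it. A fold limit of 1.5 left 0 of the genes and 0 companions. Companions fell to 0 with library size only, with no filter and with only the 2 groups in the fit, and DESeq2 called 2 companions there, 1 in XBP1ΔDCIRE1truncDC and 1 of the 9 genes (*Cnpy3*) between the lines. Leaving out a pool gave 0 to 1 of the 9 genes and 0 to 1 companions in XBP1ΔDC. The order per length had 1 overlapping pair of neighbours, and 3 with the longest transcript.

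Of 567 recomputed fold changes, 516 kept direction and side, 6 (*Cnpy3* in XBP1ΔDC) lost and 1 gained the call, and 44 changed sign, with an adjusted p of at least 0.628. The cause was not tested. In XBP1ΔDC, leaving out a pool gave -0.03 to 0.27 for *Tlr4*, -0.20 to 0.00 for *Cnpy4* and -0.05 to 0.05 for *Myd88* (0.01 with library size only). In XBP1ΔDCIRE1truncDC against control it gave -0.42 to 0.28 for *Tlr4*, -0.04 to 0.05 for *Cnpy3* and -0.04 to 0.07 for *Myd88*. *Tlr4* there was -0.11 with voom and with the block, -0.01 with the newer edgeR method and -0.09 with the authors' log2 values, and *Myd88* was 0.00 or 0.01 with 6 settings. Between the lines it gave -0.15 to 0.13 for *Tlr3*, -0.56 to 0.15 for *Tlr4*, -0.08 to 0.36 for *Tlr9*, -0.22 to 0.01 for *Cnpy4* and -0.02 to 0.05 for *Myd88*. The block gave 0.05 for *Tlr3*, 0.00 for *Tlr9* and -0.01 for *Myd88*, which was also -0.01 with library size only, and *Tlr3* was 0.01 with RLE scaling, no filter and DESeq2. *Tlr7* differences ran from -0.133 to 0.20 CPM in XBP1ΔDC and -0.317 to 0.0163 CPM in XBP1ΔDCIRE1truncDC. The newer edgeR method and the authors' log2 values were added after seeing the data. Depth limits *Tlr7* and *Tlr9* most, with a counting error of up to 54.8% and 12.8% of a group's mean.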

Other observations

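Over the 11 pools, the log2 CPM of each of the 9 tested genes was set beside the log2 of the summed mature DC markers, a relation chosen after seeing the data. The most negative were *Tlr11* (Pearson r = -0.607, permutation p = 0.0484, Spearman rho = -0.5, permutation p = 0.123) and *Tlr3* (r = -0.603, permutation p = 0.0498, rho = -0.6, permutation p = 0.0571). Adjusted over the 9 relations, Pearson's permutation p was 0.224 for both and Spearman's 0.554 and 0.514, so neither passed. The permutations moved pools freely across genotypes, so these p-values also take in differences between the groups. Without the 2 pools farthest from the median (control replicate 2 and XBP1ΔDCIRE1truncDC replicate 3) r was -0.343 for *Tlr11* and -0.55 for *Tlr3*. With group means removed, r was -0.327 and -0.489, and no value was computed within single groups of 3 or 4 pools. For *Cnpy3* r was -0.038 (permutation p = 0.911, rho = -0.164, permutation p = 0.634).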
